A study of Homo sapiens with 4 samples.

Results

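The 8 genes described here encode fibroblast growth factor (FGF) receptors, FGF family proteins and FGF binding proteins. They were chosen by symbol among 16811 measured genes: *FGFR1*, *FGFR2*, *FGFR3*, *FGFR4*, *FGF2*, *FGF11*, *FGFBP1* and *FGFRL1*, and all 8 had a value in each of the 4 libraries. Symbols were matched exactly, so the unrelated *FGFR1OP* and *FGFR1OP2* are not among them. RNA-seq was made from MCF12A, a non-tumorigenic human mammary epithelial line that the sample labels list under breast cancer cell lines. The labels give 2 wild-type libraries and 2 libraries of *C1orf132* KO cells, called edited here, in which CRISPR/Cas9 had removed the distal p2 promoter of this long non-coding RNA gene. The edited colonies grew from single sorted cells, and the study's text does not say how many colonies the 2 edited libraries represent. Both groups share the growth medium, which held EGF, insulin, hydrocortisone, cholera toxin and horse serum, with no FGF among its listed additives.

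FGFs that are secreted bind receptor tyrosine kinases on the cell surface together with heparan sulfate, and the activated kinase passes the signal through adaptors to the RAS-MAPK and PI3K pathways. Epithelia are known for splice forms of *FGFR2* and *FGFR3* that respond to ligands made by the stroma, while *FGFR1* is better known from mesenchymal cells. The comparison asks whether a gain of *FGFR1* in edited cells goes with a loss of these epithelial receptors.

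The deposited values are a normalized expression signal without read counts. How they were scaled is not given in the sources used here, and they are read as values per gene length because they fell with length across genes. Where a pair of values is given, replicate 1 comes before replicate 2. The total of all values was between 1444640 and 1655440 per library, which is not a sequencing depth. Whole reads could not be recovered from low values, so the depth is unknown and no counting interval is given. The targeted gene was not analysed here, so the genotype of each library rests on its label. Of 8 mammary epithelial markers, all 8 had values in each library, and their summed level was 10933 and 20156 in wild-type replicates 1 and 2 but 4886 and 5683 in edited replicates 1 and 2. Both edited values lay below both wild-type values for 6 of the 8 markers (30.2% of all genes). The basal keratins *KRT5*, *KRT14* and *KRT17* were among them, with edited means at 0.398, 0.109 and 0.219 of the wild-type means. None of these keratins passed an adjusted p of 0.05 (0.187, 0.0635 and 0.0628 from limma). Wild-type replicates 1 and 2 were far apart for *KRT5* (4590 and 11914) and *KRT14* (585 and 1880). *KRT5* had the highest mean of these keratins in both groups, at 3056 or more in every library. In wild-type replicate 1, *KRT17* was above it (4947 against 4590). *KRT18*, another listed marker, overlapped between groups, at 266 and 296 in edited and 275 and 82.2 in wild-type libraries. *CDH1* (E-cadherin) was at 1.54 to 3.89 in edited and 123 to 150 in wild-type libraries (log2 fold change -5.28, SE 0.35, adjusted p = 0.00757 from limma). In all, 1 of the 8 markers rose (*KRT8*, adjusted p = 0.0450 from limma) and 2 fell (*CDH1* and *TP63*, the latter at adjusted p = 0.0396), against 1.33% and 3.40% of all genes. Neither *KRT8* nor *TP63* passed with a pseudocount of 0.1 (0.0527 and 0.0512) or with a replicate block (0.0744 and 0.0673). The part of these changes in the values of the FGF genes was not tested. In bulk samples, fewer cells of a type and less RNA per cell cannot be told apart.

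Of the 8 genes, *FGFR1* and *FGF2* rose in edited cells, *FGFR2* and *FGF11* fell, and *FGFR3*, *FGFR4*, *FGFBP1* and *FGFRL1* did not pass an adjusted p of 0.05 (limma with Benjamini-Hochberg adjustment over all 16811 genes). Of all genes tested, 1.33% rose and 3.40% fell at this threshold. Both wild-type values of *FGF2* were under 1, so a floor on values before deposit would have fixed the direction of its change. Its rise then carries no weight in the counts and median given here. The median log2 fold change of the 8 genes was 1.10, against 0.01 for all genes, with 5 positive and 3 negative values. It was 0.66 without edited replicate 1 and 0.69 without wild-type replicate 1, with the same 5 and 3. Both edited values lay above both wild-type values for 4 of the 8 genes (31.4% of all genes) and below them for 3 (30.2% of all genes), and only *FGFBP1* overlapped. With 2 libraries per group, an exact two-sided permutation test of a single gene cannot give a p below 0.333, so each call rests on the variance that limma shares across genes. Without either wild-type library no gene of the table passed 0.05 (limma), although 4169 genes without replicate 1 and 2796 without replicate 2 had an unadjusted p under 0.05.

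**Figure D1:**
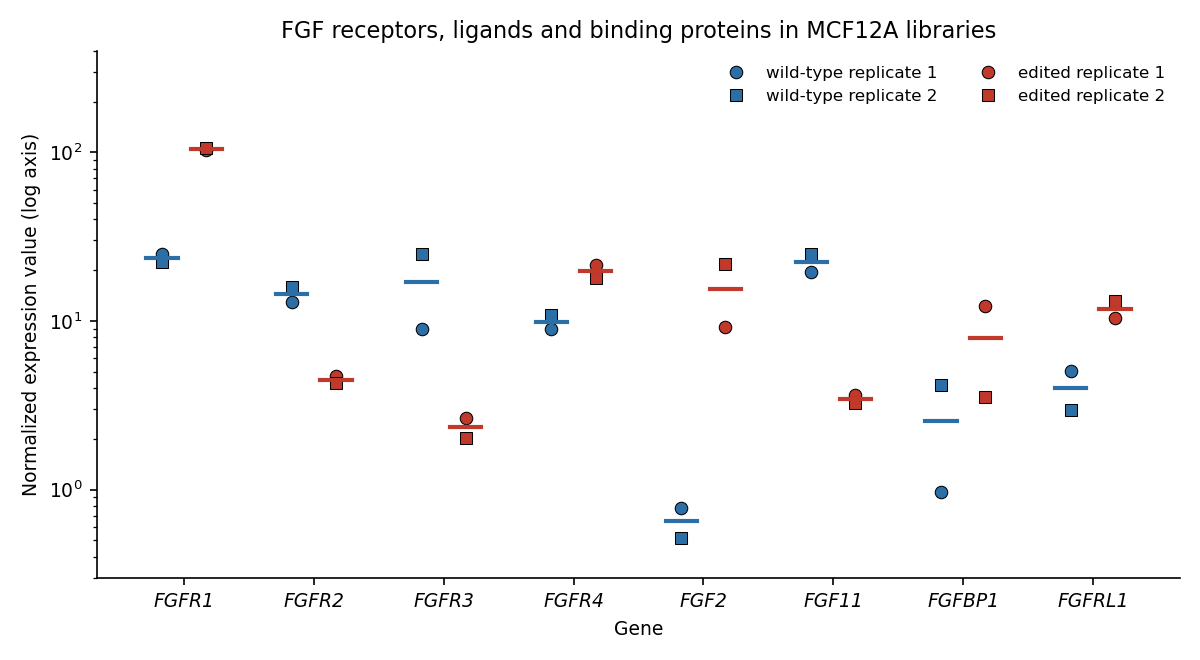
Normalized expression value (log axis) of the 8 genes in each library, with wild-type libraries in blue, edited libraries in red, circles for replicate 1, squares for replicate 2 and horizontal lines for group means. *FGFR1* lay between 22.4 and 25.1 in wild-type and between 104 and 106 in edited libraries, *FGFR2* and *FGFR3* lay lower in both edited libraries, and the libraries of the 2 groups overlapped only for *FGFBP1*.

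*FGFR1* encodes a receptor tyrosine kinase of the FGF family. Its level was 104 and 106 in edited libraries, against 25.1 and 22.4 in wild type. Replicates of a group lay close together, and the groups were far apart. The mean was 105 ± 1.54 (SD, n = 2) in edited cells, against a wild-type mean of 23.7 ± 1.85 (SD, n = 2), a ratio of 4.41. The log2 fold change of value + 1 was 2.10 (SE 0.17, adjusted p = 0.0128 from limma), and it ranged from 1.93 to 2.17 over 13 alternative settings. The adjusted p was 0.0749 when edited replicate 1 was dropped and 0.0422 when edited replicate 2 was, and it reached 0.116 and 0.179 when wild-type replicate 1 or 2 was dropped. Among all genes of the table, the mean of *FGFR1* lay at percentile 86.3 in edited and 60.7 in wild-type cells. The gene lies at chr8:38411143-38468635 (RefSeq, GRCh38.p14). The 62 other genes within 10 Mb of it that averaged 1 or more had a median log2 fold change of 0.04.

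*FGFR2* encodes the receptor whose epithelial splice form binds FGF7 and FGF10. Its level was 4.70 and 4.27 in edited libraries, against 13.0 and 15.8 in wild type, so both edited libraries were low. The wild-type mean of 14.4 ± 2.00 (SD, n = 2) was 3.21 times the edited mean of 4.49 ± 0.303 (SD, n = 2). On the log2 scale the change was -1.48 (SE 0.22, adjusted p = 0.0350 from limma). This call was lost with each library left out in turn (adjusted p from 0.0902 to 0.225), and the log2 fold change then stayed between -1.62 and -1.35. With a replicate block the adjusted p was 0.0744.

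*FGFR3* encodes a receptor of stratified epithelia and growth plate cartilage. It was listed at 2.67 and 2.03 in edited libraries, against 8.99 and 24.8 in wild type. Both edited values lay below both wild-type values, but the wild-type replicates differed from each other by a factor of 2.76. The log2 fold change of -2.27 (SE 0.48, 95% confidence interval -3.48 to -1.06) did not pass the threshold (adjusted p = 0.0603 from limma). With a pseudocount of 5 it was -1.48. The wild-type mean was 7.21 times the edited mean. Set against wild-type replicate 1 alone, the edited mean was 0.261 of the wild-type value, and against wild-type replicate 2 alone it was 0.0945.

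The 300 bases around the annotated start of *FGFR2* and *FGFR3* are shown because these are the receptors that were lower in both edited libraries. Each runs 5′ to 3′ along the transcribed strand, from 250 bases before a transcript start to 50 after it (RefSeq, GRCh38.p14). The windows are chr10:121598395-121598694 on the minus strand and chr4:1793043-1793342 on the plus strand. The transcript start of *FGFR3* is that of the gene, and the start of *FGFR2*, the first of 5 entries, lies 14 bases inside the gene. Capitals mark the GC box letters GGGCGG on either strand, which can overlap each other.

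FGFR2: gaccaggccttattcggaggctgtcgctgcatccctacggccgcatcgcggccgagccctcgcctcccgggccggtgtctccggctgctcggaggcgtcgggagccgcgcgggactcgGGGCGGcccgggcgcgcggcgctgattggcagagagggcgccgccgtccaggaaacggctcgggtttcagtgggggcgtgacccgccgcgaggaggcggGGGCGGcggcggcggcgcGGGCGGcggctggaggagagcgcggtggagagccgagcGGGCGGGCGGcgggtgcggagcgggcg

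FGFR3: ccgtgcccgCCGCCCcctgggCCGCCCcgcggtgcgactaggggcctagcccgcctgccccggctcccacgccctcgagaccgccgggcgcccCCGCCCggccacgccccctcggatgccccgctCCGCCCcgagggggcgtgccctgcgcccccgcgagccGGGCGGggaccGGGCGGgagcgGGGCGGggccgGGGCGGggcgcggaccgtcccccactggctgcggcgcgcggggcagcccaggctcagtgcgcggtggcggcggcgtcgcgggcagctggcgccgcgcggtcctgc

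A promoter window was matched for 7 of the 8 genes, all but *FGFR1*. The transcript start used was that of the gene for 4 of them, and lay 14 bases inside it for *FGFR2*, 149 for *FGF2* and 2252 for *FGFRL1*. GC content was 79.3% for *FGFR2* and 86.3% for *FGFR3*, above 96.8% and 99.9% of 27305 human promoter windows, whose median was 58.3%. These windows held 52 and 51 CpG dinucleotides (median of all windows 14). GC boxes numbered 5 in *FGFR2*, 8 in *FGFR3*, 7 in *FGFR4*, 4 in *FGFRL1*, 3 in *FGF2* and 2 in *FGF11*, and 44.6% of all windows held at least 1. Of the genes that passed the test, *FGF2*, which rose, and *FGFR2* and *FGF11*, which fell, had windows with a GC content of 74.7%, 79.3% and 69.0%. *FGFBP1* had a GC content of 42.0%, 3 CpG dinucleotides and 0 GC boxes. The letters CAGGTG, searched on both strands and present in 20.6% of all windows, occurred in 1 of the 7 windows, that of *FGFR4*. The letters TATAAA, present on either strand in 11.95% of all windows, were in none of the 7.

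*FGFR4*, the fourth kinase receptor of the family, did not follow *FGFR2* and *FGFR3*. Its level was 21.4 and 17.9 in edited libraries, against 8.92 and 10.8 in wild type. Both edited values were above both wild-type values, with a ratio of means of 1.99. The log2 fold change of 0.93 (SE 0.21, 95% confidence interval 0.39 to 1.47) did not pass the threshold (adjusted p = 0.0699 from limma). *FGFR4* lies at chr5:177086915-177098144, and 64 of the 84 other genes within 10 Mb of it that averaged 1 or more had a positive log2 fold change, with a median of 0.45. The 543 other genes of chromosome 5 that averaged 1 or more, these 84 among them, had a median of 0.29. The median outside the window was not computed. The part of these positive medians in the value of *FGFR4* was not tested. For the other 7 genes the median within 10 Mb was between -0.06 and 0.18, and that of the chromosome between 0.00 and 0.03.

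Read as values per length, the receptors can be set against each other within a library. *FGFR1* was 22.02 and 24.7 times *FGFR2* in edited replicates 1 and 2, and 1.93 and 1.42 times *FGFR2* in wild-type replicates 1 and 2. Against *FGFR3* it was 38.8 and 52.2 times as high in the edited libraries, 2.79 times in wild-type replicate 1 and 0.903 times in wild-type replicate 2. The wild-type libraries therefore did not share 1 leading receptor, while *FGFR1* led in both edited libraries. The log2 ratio of *FGFR1* to *FGFR2* (value + 1) was 4.27 ± 0.101 (SD, n = 2) in edited cells, against a wild-type value of 0.69 ± 0.296 (SD, n = 2), a difference of 3.58. The log2 ratio to *FGFR3* was 4.99 ± 0.217 (SD, n = 2) against 0.62 ± 1.08 (SD, n = 2), a difference of 4.37. An exact two-sided permutation test gave p = 0.333 for each of these 2 ratios, the smallest it can give with 2 libraries per group, and an adjustment over the ratios cannot lower it.

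*FGFR1* made up 78.2% and 81.4% of the summed signal of the 4 kinase receptors in edited libraries, against 44.8% and 30.4% in wild type. The share of *FGFR2* was 3.42% ± 0.186 (SD, n = 2) in edited cells, against 22.3% ± 1.28 (SD, n = 2) in wild type. *FGFR3* had a share of 1.79% ± 0.321 (SD, n = 2) in edited cells, against 24.8% ± 12.4 (SD, n = 2) in wild type. *FGFR4* kept a similar place in the sum, with shares of 13.8% to 16.2% in edited and 14.6% to 15.9% in wild-type libraries, which overlapped. The sum of the 4 receptors was 132 and 130 in edited and 55.9 and 73.9 in wild-type libraries.

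**Figure D2:**
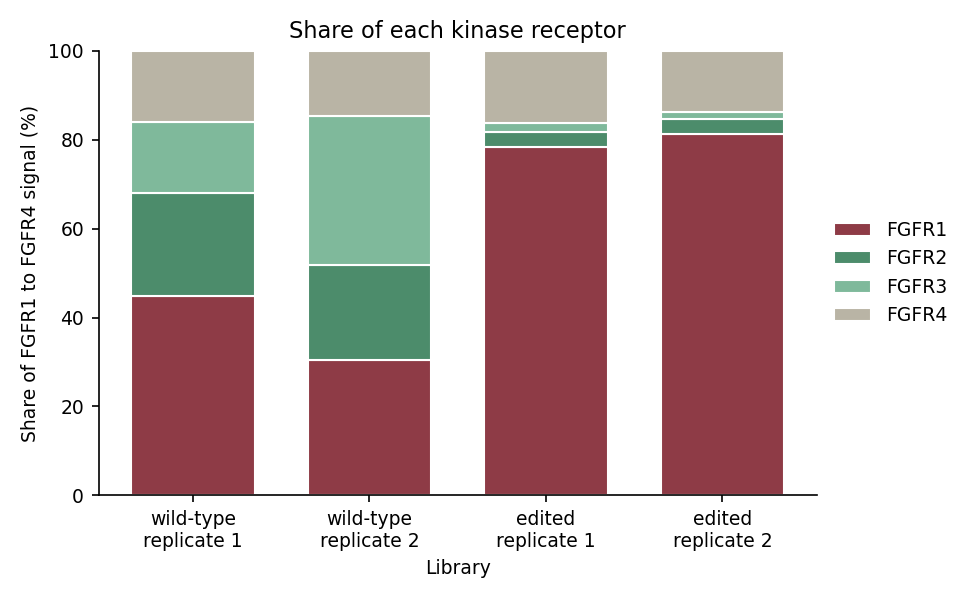
Share (%) of *FGFR1*, *FGFR2*, *FGFR3* and *FGFR4* in their summed normalized expression value, 1 stacked bar per library. *FGFR1* filled 78.2% and 81.4% of the edited bars against 44.8% and 30.4% of the wild-type bars, where *FGFR2* and *FGFR3* together filled most of the rest.

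The values hold 1 number per gene, so the epithelial (IIIb) and mesenchymal (IIIc) splice forms of *FGFR1*, *FGFR2* and *FGFR3* were not told apart. Of 9 regulators of such exons, 1 fell and 0 rose at adjusted p under 0.05 (limma), against 3.40% and 1.33% of all genes. *ESRP1*, which promotes the epithelial form of *FGFR2*, was listed at 5.19 and 1.79 in edited and at 262 and 229 in wild-type libraries (log2 fold change -5.89, SE 0.40, adjusted p = 0.00773). Its paralog *ESRP2* was at 46.1 and 34.0 in edited and 31.3 and 19.4 in wild type (log2 fold change 0.66, adjusted p = 0.207). The median of the 9 genes was 0.40.

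*FGF2*, the basic FGF, is a secreted ligand that binds *FGFR1* with high affinity. It was listed at 9.17 and 21.7 in edited libraries, against 0.780 and 0.516 in wild type. Edited libraries were high and also differed from each other by a factor of 2.36. Wild-type libraries were near the bottom of the table, their mean lying at percentile 1.66. Both wild-type values of *FGF2* were under 1, and no removal of low genes is stated in the sources used here. Low genes looked at still reached 1 in at least 2 libraries, the pattern that such a removal would leave. Examples are *RP11-872D17.4* (1.04 and 2.97 in edited, 0 and 0 in wild-type libraries) and *RP11-524H19.2* (0 and 0 against 1.06 and 1.97). Not every gene was checked for this. A floor of this kind would have kept *FGF2* through its edited libraries only, which fixes the direction of its change. Its log2 fold change was 3.21 (SE 0.42, adjusted p = 0.0307 from limma). Since the wild-type values are low, it depended on the pseudocount, with 4.27 at a pseudocount of 0.1 and 1.78 at 5. Means stood in a ratio of 23.8, which became 14.2 when edited replicate 2 was dropped and 33.5 when edited replicate 1 was dropped. The adjusted p was between 0.0503 and 0.225 when any 1 library was dropped and 0.0657 with a replicate block.

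*FGF11* belongs to the FGF homologous factors, which stay inside the cell and are not known as ligands of the kinase receptors. Its level was 3.62 and 3.26 in edited and 19.5 and 24.9 in wild-type libraries. The wild-type mean was 6.46 times the edited mean, with replicates of each group close together. This gave a log2 fold change of -2.38 (SE 0.22, adjusted p = 0.0162 from limma). Dropping any 1 library kept it between -2.55 and -2.21 but took the adjusted p to between 0.0531 and 0.186, and a replicate block gave 0.0549. None of the other 17 ligands and 3 homologous factors of the family had a value under its symbol, so none was analysed here.

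*FGFBP1* is a secreted carrier that releases FGFs from the matrix. It was listed at 12.3 and 3.53 in edited libraries, against 0.966 and 4.17 in wild type. The lower edited value lay under the higher wild-type value, so the groups overlapped. A log2 fold change of 1.28 had a standard error of 0.68 and a 95% confidence interval of -0.43 to 3.0 (adjusted p = 0.270 from limma). With a pseudocount of 5 it was 0.71, and without edited replicate 1 it was 0.51. The ratio of means was 3.08, and it ranged from 1.38 without edited replicate 1 to 8.18 without wild-type replicate 2. A related carrier, *FGFBP3*, was listed at 1.37 and 1.29 in edited and 0.626 and 0.531 in wild type (log2 fold change 0.56, adjusted p = 0.212).

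*FGFRL1* encodes a receptor that binds FGFs but lacks the tyrosine kinase domain. Its level was 10.4 and 13.1 in edited and 5.07 and 2.96 in wild-type libraries, with both edited libraries higher. The ratio of means was 2.92, and it ranged from 2.32 without wild-type replicate 2 to 3.96 without wild-type replicate 1. The log2 fold change of 1.37 (SE 0.29, 95% confidence interval 0.63 to 2.11) did not pass the threshold (adjusted p = 0.0618 from limma). With a pseudocount of 5 it was 0.90. *FGFRL1* lies at chr4:1010212-1026898 and *FGFR3* at chr4:1793293-1808867, less than 1 Mb apart on the same chromosome arm, with log2 fold changes of opposite sign.

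**Figure D3:**
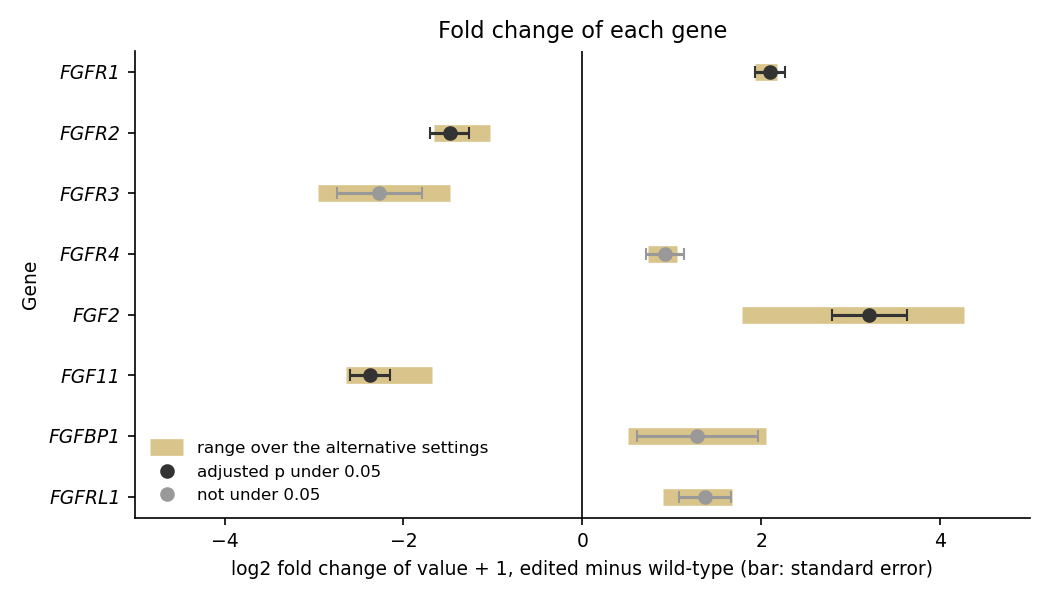
Log2 fold change of value + 1 (edited minus wild-type) of the 8 genes, as points with standard errors over the range of the alternative settings (pale bars), dark where the adjusted p was under 0.05 and grey otherwise. *FGF2*, *FGFR1*, *FGFR2* and *FGF11* are dark, and the range of each gene stays on 1 side of 0.

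In wild-type cells, the genes ranked by mean value as *FGFR1* (23.7), *FGF11* (22.2), *FGFR3* (16.9), *FGFR2* (14.4), *FGFR4* (9.86), *FGFRL1* (4.02), *FGFBP1* (2.57) and *FGF2* (0.648). Of these neighbours, *FGFR1* and *FGF11*, *FGF11* and *FGFR3*, *FGFR3* and *FGFR2*, and *FGFRL1* and *FGFBP1* had overlapping replicate values. In edited cells, the order was *FGFR1* (105), *FGFR4* (19.7), *FGF2* (15.4), *FGFRL1* (11.7), *FGFBP1* (7.89), *FGFR2* (4.49), *FGF11* (3.44) and *FGFR3* (2.35). Here the replicate values of *FGFR4* and *FGF2*, *FGF2* and *FGFRL1*, *FGFRL1* and *FGFBP1*, and *FGFBP1* and *FGFR2* overlapped. Within single libraries, *FGF2* was the last of the 8 in both wild-type libraries and stood at place 5 and 2 in edited ones. *FGFR3* was at place 4 and 2 in wild-type libraries and the last in both edited ones.

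Partners that bind FGF receptors at the membrane were measured for 6 of 10 listed genes. Of these, 2 rose and 0 fell (limma), against 1.33% and 3.40% of all genes. Their median log2 fold change was 0.80, and 0.52 without wild-type replicate 1. *L1CAM*, a neural cell adhesion molecule, was at 189 and 203 in edited and 62.1 and 64.7 in wild-type libraries (log2 fold change 1.61, SE 0.17, adjusted p = 0.0182). *CDH2* (N-cadherin), which binds and stabilizes *FGFR1*, was at 4.52 and 8.87 in edited and 0.429 and 0.0996 in wild-type libraries (2.56, SE 0.37, adjusted p = 0.0347 from limma). Both wild-type values of *CDH2* were under 1, so a floor on values before deposit would have kept it through the edited libraries only. Such a floor fixes the direction of its change, and its rise then carries no weight in the count of partners that rose. Dropping edited replicate 1 took the adjusted p to 0.0858 for *L1CAM* and 0.0782 for *CDH2*. Dropping edited replicate 2 took it to 0.0594 and 0.0775, and a replicate block to 0.0531 and 0.0708.

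Heparan sulfate is the co-factor that holds FGF and receptor together. Of 11 measured core proteins, 1 rose and 0 fell (limma), against 1.33% and 3.40% of all genes. Their median log2 fold change was -0.16, and it was 0.09 without wild-type replicate 2 and -0.39 without edited replicate 2. The one that rose was the syndecan *SDC3*, with 38.0 and 28.2 in edited and 13.1 and 11.8 in wild-type libraries (log2 fold change 1.33, SE 0.22, adjusted p = 0.0435). Its adjusted p was 0.0726 without edited replicate 2, 0.179 without edited replicate 1, 0.0506 with a pseudocount of 0.1 and 0.0697 with a replicate block. Among 13 measured enzymes that build or trim the chains, 0 passed (limma), with 3 at an unadjusted p under 0.05, where 29.2% of all genes lay. The median of 0.06 became -0.12 when edited replicate 2 was dropped and 0.15 when edited replicate 1 was.

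Adaptors and relay proteins below the receptor were measured for 25 of 26 genes. Of these, 1 fell and 0 rose (limma), against 3.40% and 1.33% of all genes. Their median log2 fold change was -0.14, and it was -0.28 without wild-type replicate 1 and -0.26 without edited replicate 2. The gene that fell was *GRB14*, an adaptor that dampens receptor tyrosine kinases. It was listed at 2.24 and 4.16 in edited and 13.3 and 12.2 in wild-type libraries (log2 fold change -1.75, SE 0.29, adjusted p = 0.0437). Without edited replicate 2 its adjusted p was 0.0594, without edited replicate 1 it was 0.150, with a pseudocount of 0.1 it was 0.0554 and with a replicate block 0.0767. *FRS2*, the docking protein of FGF receptors, was at 5.88 and 6.65 in edited and 7.42 and 9.59 in wild-type libraries (-0.38, adjusted p = 0.322).

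Feedback inhibitors and targets of FGF and MAPK signalling, such as sprouty and ETV genes, were measured for 10 of 12 genes. None passed an adjusted p of 0.05 (limma), and 4 of the 10 had an unadjusted p under 0.05, where 29.2% of all genes lay. The 10 log2 fold changes were positive (50.9% of all genes), with a median of 1.02. This depended on the wild-type libraries: the median was 0.36 without wild-type replicate 2, with *SPRED3* and *ETV4* then negative, and 1.84 without wild-type replicate 1. Without edited replicate 2 it was 0.77, with *SPRED3* negative. Their summed value was 145 and 278 in edited libraries, against 124 and 30.0 in wild type, so wild-type replicate 1 was close to edited replicate 1. *FGF2* was also higher in edited replicate 2 than in edited replicate 1, and its wild-type values were 0.780 and 0.516. The relation of *FGF2* to the feedback genes was not tested. The sprouty gene *SPRY4* was at 3.46 and 10.6 in edited and 1.77 and 0.211 in wild-type libraries (log2 fold change 1.97, SE 0.61, adjusted p = 0.111).

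**Figure D4:**
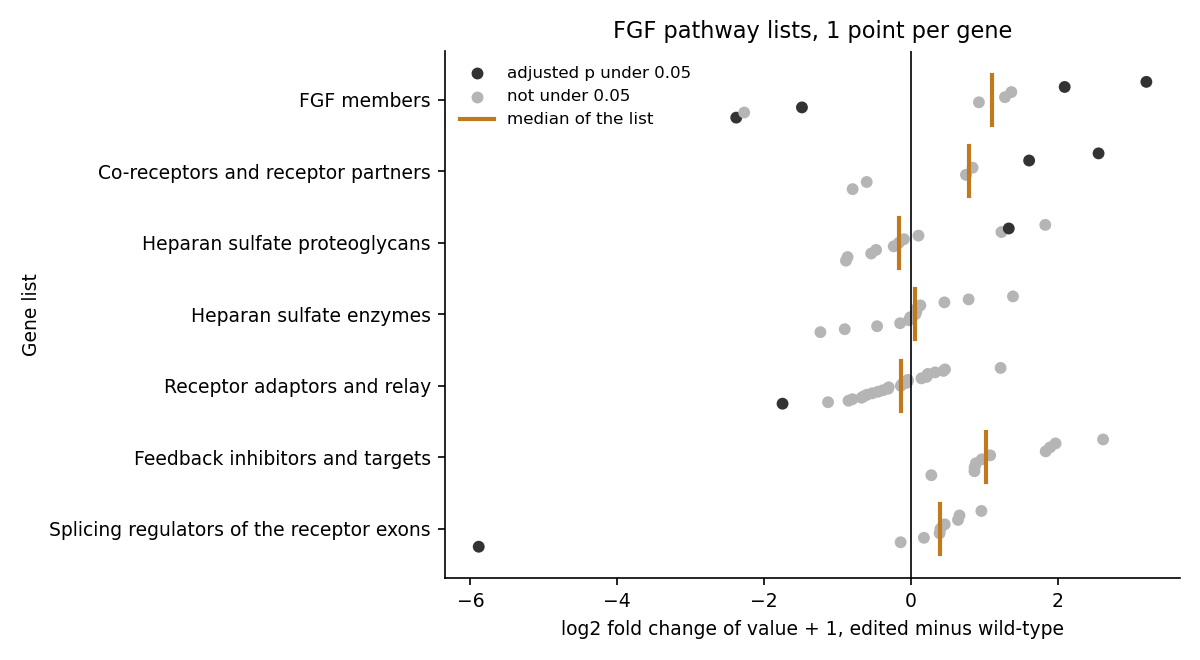
Log2 fold change of value + 1 (edited minus wild-type) for each measured gene of the 8 FGF genes and 6 pathway lists, with 1 point per gene, dark where the adjusted p was under 0.05 and grey otherwise, and a vertical bar at the median of the list. With all 4 libraries, the 10 feedback genes lie right of 0 without a dark point, and *ESRP1* lies far to the left at -5.89.

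Markers of other cell types were read beside these values. Of 10 fibroblast and stroma markers, 3 had values, and their sum was 30.5 and 225 in edited libraries, against 78.0 and 52.3 in wild type. *COL1A1* (collagen I) was lower in edited cells, at 3.19 and 5.58 against 15.6 and 28.1 (log2 fold change -2.06, SE 0.37, adjusted p = 0.0490 from limma). This call sat at the threshold: its adjusted p reached 0.0775 to 0.238 when any 1 library was dropped and 0.0592 with a pseudocount of 0.1. *DCN* (decorin) was at 15.1 and 105 in edited and 7.42 and 1.09 in wild-type libraries, and *FAP* at 12.2 and 114 in edited and 55.0 and 23.1 in wild-type libraries. *FGF2* shared the higher value in edited replicate 2, while *FGFR1* was nearly equal in both edited libraries. The relation of these marker values to either gene was not tested. The defining stroma markers *PDGFRA*, *PDGFRB*, *COL1A2* and *COL3A1* and the 5 endothelial markers had no value under their symbols, so they were not analysed here. Of 4 leukocyte markers, *CD14* alone had values, at 8.98 and 9.28 in edited and 15.1 and 9.53 in wild-type libraries.

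Genes with a pattern like that of each receptor were found by the distance of log2(value + 1), less its mean over the 4 libraries, among the 9590 genes that averaged 10 or more. Nearest to *FGFR1* were *CTD-2058B24.2* (distance 0.238), *CTD-2574D22.6* (0.286), *SCGB3A2* (0.302), *AOX1* (0.318) and *EMP3* (0.324). *EMP3*, an epithelial membrane protein family gene, was at 360 and 287 in edited and 66.1 and 63.8 in wild-type libraries. Nearest to *FGFR2* were *SERPINF1* (0.0810), *ERMP1* (0.107), *HES1* (0.117), *BLVRB* (0.121) and *DAB2IP* (0.135). *HES1*, a Notch target, was at 14.1 and 12.1 in edited and 35.7 and 45.8 in wild-type libraries. Nearest to *FGFR3* were *RP11-611D20.2* (0.298), *CD274* (0.314), *ATP1B1* (0.474), *EGLN3* (0.520) and *RP11-44F14.2* (0.538). Their higher value in wild-type replicate 2, like that of *FGFR3*, follows from choosing them by distance to it. *CD274*, which encodes the immune checkpoint ligand PD-L1, was at 4.36 and 5.02 in edited and 16.1 and 42.2 in wild-type libraries.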

How the data were processed

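Poly(A)-selected RNA of 2 edited and 2 wild-type MCF12A libraries was read from 1 end over 75 bases. The values that the authors deposited are a normalized expression signal per gene symbol and library. Salmon, HISAT2 and hg38 stand in the submitters' processing notes, and versions, annotation and the normalization are not given in the sources used here. The signal is taken as scaled for length, since the median value fell from 41.9 in the shortest to 15.6 in the longest of 5 gene length groups, and between 648 and 1183 values per library lay between 0 and 1. Depth is unknown, so tests for counts were not used.

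All 16811 genes of the table were tested with no added filter, with limma 3.58.1 in R 4.3.3 (lmFit, eBayes with trend). Values were taken as log2(value + 1), which understates the change of low genes. No removal of low genes before deposit is stated in the sources used here. Low genes looked at still reached 1 in at least 2 libraries, the pattern that such a step would leave, and not every gene was checked. *FGF2* and *CDH2*, which rose, were under 1 in both wild-type libraries. Such a step would have kept them through the edited libraries only and fixed their direction. The fit had no replicate block, and Benjamini-Hochberg adjustment with a threshold of 0.05 was used. The labels call the libraries biological replicates without naming separate cultures or clones, so p-values measure the spread between these libraries, which may be technical. The test was tried on simulated data first. Python 3.11.15 was used for lists, ratios and figures. Intervals are at 95%.

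The 8 genes, the lists and the tests were chosen with earlier results of these data known. Named beside the 8 genes were, from each pathway list, up to 4 genes per direction past 0.05, and the 5 nearest patterns to *FGFR1*, *FGFR2* and *FGFR3*. *CDH1*, *TP63*, *KRT5*, *KRT8*, *KRT14*, *KRT17*, *KRT18*, *COL1A1*, *DCN*, *FAP* and *CD14* are listed cell type markers. *ESRP2*, *FGFBP3*, *FRS2*, *SPRY4*, *SPRED3* and *ETV4* were named after their values were seen. The alternatives were pseudocounts of 0.1 and 5, mean values of at least 1 and 10, equal totals, quantile and cyclic loess normalization, no trend, a replicate block, a threshold of 0.001 and each library left out in turn. List medians with a library left out were added after seeing the data.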

Additional observations from a re-analysis of the deposited data

How the results depend on the processing

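Of the 8 genes, each kept the sign of its log2 fold change under every alternative in which it was tested. *FGFR1* and *FGF2* passing as higher became 1 gene with a mean value of at least 10 (3 of the 8 genes tested) and with the replicate block, 0 to 1 with each library left out, and 0 at a threshold of 0.001. *FGFR2* and *FGF11* passing as lower became 1, 0, 0 and 0 in the same order. In these limma fits all 3 tested genes had an unadjusted p under 0.05 with the filter, 7 of 8 with the block and at the stricter threshold, and 7 or 8 with a library left out. Over all genes, 224 higher became 127 with a pseudocount of 0.1, 17 with the block, 0 to 28 with a library left out and 0 at 0.001. The 571 lower became 108 with the block, 0 to 220 with a library left out and 0 at 0.001. At an unadjusted p under 0.05 there were 4909 genes in the full fit and 2796 to 4344 with a library left out. Fewer libraries or residual degrees of freedom are built into these fits, and the cause of the other shifts was not tested.

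With a library left out, the log2 fold change of *FGFR1* ranged from 2.02 to 2.17 and that of *FGFR2* from -1.62 to -1.35. With the replicate block that of *FGFR2* was -1.48 at an adjusted p of 0.0744. The deviations of same-numbered libraries from their group means had a correlation across genes of -0.0927. With 2 libraries per group the 2 pairs give the same value by construction. It cannot show whether same-numbered libraries share more than a number, so what the replicate block pairs is unknown. With a pseudocount of 5 the difference in the log2 ratio of *FGFR1* was 2.96 against *FGFR2* and 3.41 against *FGFR3*. Equal totals moved the median of all genes from 0.01 to -0.09 on the log2 scale.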
